A study of Mus musculus with 4 samples.

Results

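The Wnt ligands, their Frizzled receptors and co-receptors, the secreted Wnt inhibitors, the R-spondins and the target gene *Axin2* were followed in Osr1+ cells of mouse limbs at E13.5. Members were taken by gene symbol. They comprised 47 of the 23284 gene symbols counted, namely 19 Wnt ligands, 10 Frizzled receptors, 4 co-receptors (*Lrp5*, *Lrp6*, *Ror1* and *Ror2*), 4 Sfrp genes, 4 Dkk genes with *Wif1*, 4 R-spondins and *Axin2*. RNA came from 2 *Osr1* GCE/+ and 2 *Osr1* GCE/GCE embryos of strain C57BL/6J. GCE is a knock-in of eGFP-IRES-CreERt2 at *Osr1*, so GCE/+ cells keep 1 intact *Osr1* copy and GCE/GCE cells have none. Live cells were sorted by the GFP of this allele after propidium iodide staining. Each embryo therefore carried at least 1 GCE allele, GCE/GCE embryos carried 2 reporter copies, and wild-type cells were not part of the comparison.

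Wnts are secreted, lipid-modified proteins that bind Frizzled receptors on nearby cells. Together with Lrp5 or Lrp6 a Wnt stabilises β-catenin, which acts with TCF/LEF factors on target genes such as *Axin2*, while the receptors Ror1 and Ror2 serve β-catenin-independent signals, for example those of Wnt5a. Sfrp proteins and Wif1 bind Wnts outside the cell, Dkk1 and Dkk2 bind Lrp5 and Lrp6, and R-spondins keep Frizzled receptors on the cell surface through Lgr receptors. In the limb, Wnts from the ectoderm and the mesenchyme guide outgrowth, patterning, joint formation and the placing of cartilage and soft connective tissue.

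Total counts per sample were between 52121596 and 61402140, and 3 counts amounted to between 0.0489 and 0.0576 CPM (counts scaled to library size). *Osr1* was at 81.9 and 79.1 CPM in the GCE/+ embryos, against 11.9 and 13.9 CPM in the GCE/GCE embryos, so the levels follow the labelled genotypes. GCE/GCE replicate 1 stood apart by *Xist*, the RNA of the inactive X chromosome, at 1142 CPM against at most 2.63 CPM in the other samples, and no member lies on the X chromosome. Defining markers of connective tissue, such as *Pdgfra*, *Prrx1* and *Col3a1*, were read in all samples, and the 10 on that list summed to between 9441 and 12534 CPM. Markers of other cells were also read. The 10 epithelial markers summed to between 26.6 and 34.6 CPM, the 10 endothelial markers to between 84.2 and 126 CPM and the 10 muscle markers to between 169 and 219 CPM. Of these lists and those of macrophage, cartilage, tendon, Schwann and neural, and erythroid markers, 1 erythroid gene alone was at 0 in every sample.

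In GCE/GCE cells, the ligand genes *Wnt11* and *Wnt2* were lower, and the secreted protein gene *Dkk3* and the receptor gene *Fzd9* were higher. *Wnt11* was at 0.66 and *Wnt2* at 0.60 of the GCE/+ level, while *Dkk3* rose 1.48-fold and *Fzd9* 2.10-fold. These 4 of the 39 members with enough counts to be tested passed the quasi-likelihood test of edgeR at a Benjamini-Hochberg adjusted p of 0.1. That is 10.3% of them, where 1.82% of all 15645 tested genes passed. By direction, 2 members were higher and 2 lower, beside 0.895% and 0.927% of all genes. *Rspo1*, *Rspo2*, *Dkk2*, *Fzd1* and *Wnt7b* had an unadjusted p under 0.05 without passing, so that 9 of 39 members (23.1%) were under this limit against 10.5% of all genes. Of the 9, 3 were higher and 6 lower, beside 5.62% and 4.86% of all genes. In 17 of 39 members (43.6%) the samples of both genotypes did not overlap, which was near the 38.4% of all genes. Of these, 7 were higher and 10 lower in GCE/GCE cells, beside 19.2% and 19.1%. The median log2 fold change of the 39 members was 0.04, beside 0.003 for all tested genes, and 21 members had a positive and 18 a negative sign. The RNA is bulk RNA, in which fewer cells of a type and less RNA per cell cannot be told apart.

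**Figure D1:**
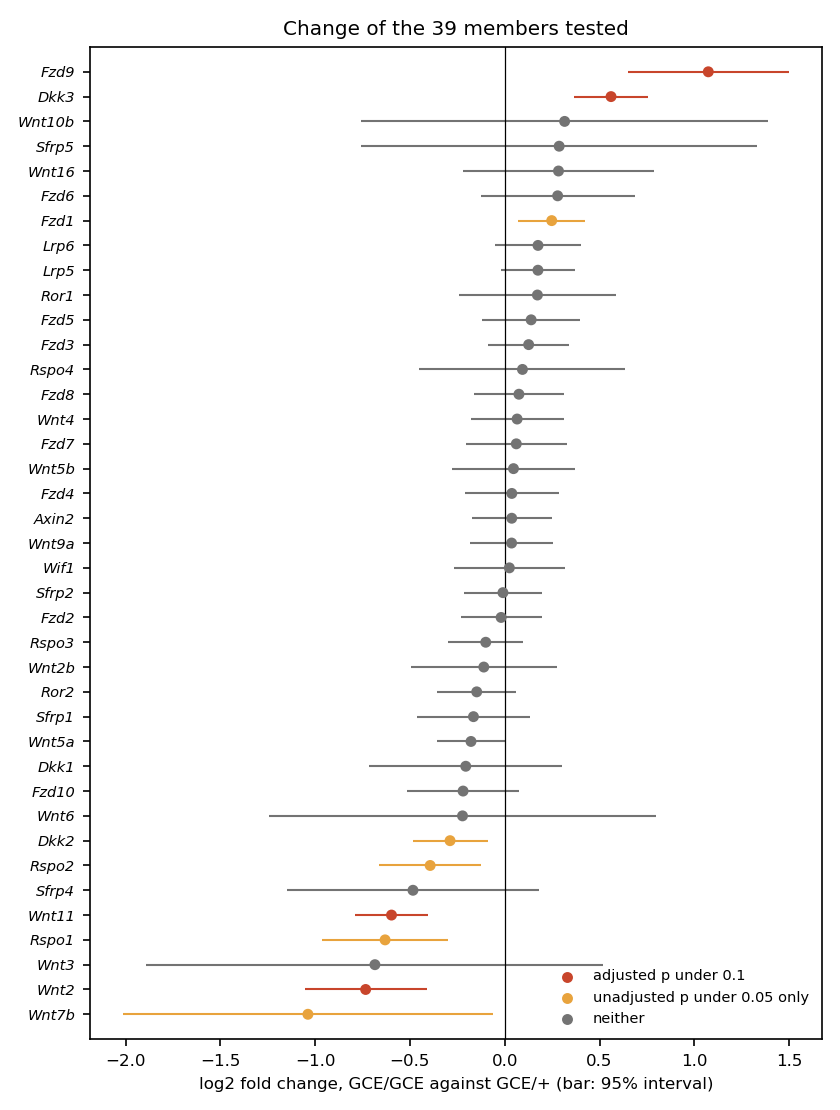
Log2 fold change of GCE/GCE against GCE/+ cells (horizontal axis) for the 39 tested members, ordered by log2 fold change. Bars show the 95% confidence interval and colour the test. *Wnt11* (-0.60) and *Wnt2* (-0.73) lie to the left of 0 and *Dkk3* (0.56) and *Fzd9* (1.07) to the right, and most other intervals cross 0.

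Markers of other cell types moved with genotype as well. All 11 macrophage markers were lower in both GCE/GCE samples, beside 19.1% of all genes, and 7 passed the test, beside 0.927%. They summed to 312 and 314 CPM in the GCE/+ embryos, against 196 and 139 CPM in the GCE/GCE embryos. The 10 cartilage markers were all higher in both GCE/GCE samples, beside 19.2% of all genes, and 3 passed, beside 0.895%. They summed to 706 and 1105 CPM against 1528 and 1681 CPM. On this list the GCE/+ embryos differed from each other by a median of 0.87 on the log2 scale. The median log2 fold change with genotype was 0.89. Of the 10 tendon markers 4 passed as higher and 1 as lower, beside 0.895% and 0.927% of all genes. The study also reports cartilage and tendon genes as higher in *Osr1*-deficient cells, with RT-qPCR of selected genes in other embryos. It further reports a higher chondrogenic capacity of these cells in culture. Which of the sorted cells carried these RNAs was not tested here. Endothelial markers summed to 126 and 102 CPM against 102 and 84.2 CPM. Of these 0 passed in edgeR and 1 in DESeq2, beside 1.82% and 3.45% of all genes. At an unadjusted p under 0.05 (edgeR) there were 5, all lower, beside 4.86% of all genes. The 10 connective tissue markers summed to 12534 and 11658 CPM against 10284 and 9441 CPM. Most of these sums was *Col3a1*, at 9549 and 8787 CPM against 7716 and 6845 CPM. On this list *Osr1* alone passed in edgeR and 5 genes in DESeq2, beside 1.82% and 3.45% of all genes. Of the 10, 8 had a negative log2 fold change and 2, *Pdgfra* and *Osr2*, a positive one. None of the epithelial, muscle, Schwann and neural, or erythroid markers passed in edgeR. At an unadjusted p under 0.05 (edgeR) there were 4, 3, 0 and 1 of them, beside 10.5% of all genes. Of the 4 epithelial ones 3 were higher and 1 lower, the 3 muscle ones were higher and the 1 erythroid one lower. DESeq2 called 1, 1, 0 and 0, beside 3.45% of all genes. The part of these lists in the values of *Wnt11*, *Wnt2*, *Dkk3*, *Fzd9* and *Rspo1* was not tested.

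Levels of different genes were compared as CPM per kb of the longest annotated transcript, since longer transcripts give more fragments. On this scale *Sfrp2*, a secreted Wnt-binding protein gene, was the highest member in GCE/+ cells at 217 and 217 CPM per kb. *Dkk2*, which encodes an Lrp5 and Lrp6 ligand, followed at 61.8 and 61.8 CPM per kb. *Sfrp1* (47.6 and 60.9) and *Fzd2* (54.6 and 52.4 CPM per kb) came next, and their samples overlapped, so their order is not set. *Fzd7* was at 30.6 and 38.4 CPM per kb. Below it *Fzd1*, *Lrp6*, *Wnt5a*, *Ror2*, *Lrp5* and *Axin2* had means of at most 24.3 CPM per kb. Samples of neighbours in this order overlapped, except that both samples of *Ror2* (23.3 and 21.0) lay below both of *Wnt5a* (23.4 and 24.6 CPM per kb). *Wnt11* was twelfth from the top, at 17.0 and 17.5 CPM per kb, below both samples of *Axin2* at 18.9 and 21.2 CPM per kb. The first 10 were the same genes when CPM were not divided by length, and 9 of them remained when the mean transcript length was used.

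**Figure D2:**
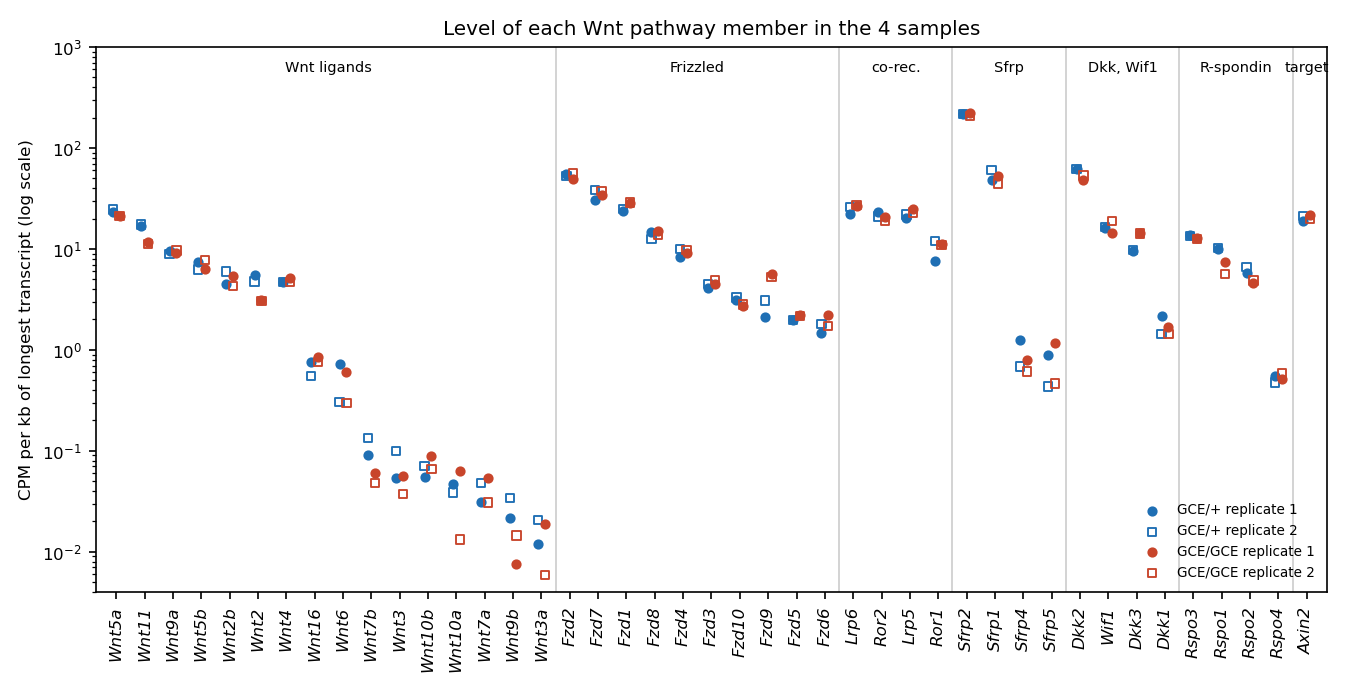
Level of members in each of the 4 samples (circles replicate 1, squares replicate 2), in CPM per kb of transcript on a log axis, grouped by role. *Sfrp2* lies highest at about 217 CPM per kb, *Wnt5a* and *Wnt11* lie highest among ligands, and *Wnt1*, *Wnt8a*, *Wnt8b* and *Dkk4*, with at most 2 counts in a sample, are not drawn.

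Among the ligands, *Wnt5a* and *Wnt11* led. *Wnt5a*, required for limb outgrowth, made up between 31.8% and 33.6% of the summed ligand level per kb in every sample. *Wnt11*, a ligand mostly linked to β-catenin-independent signals, made up 23.1% and 23.7% in the GCE/+ embryos, against 18.3% and 17.7% in the GCE/GCE embryos. The summed ligand level was 73.8 and 74.0 CPM per kb in the GCE/+ embryos, against 63.9 and 63.0 CPM per kb in the GCE/GCE embryos. Both GCE/GCE sums were thus below both GCE/+ sums, and no test was made of them, since 2 samples against 2 cannot go below p = 0.333 in a two-sided exact permutation test.

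Chromosome 7 of GRCm38 holds *Wnt11* between 98835112 and 98855195. The gene was at 58.8 and 60.5 CPM in the GCE/+ embryos, against 40.5 and 38.4 CPM in the GCE/GCE embryos. The genotypes did not overlap, and replicates differed far less than genotypes. On the log2 scale the difference was -0.60 (SE 0.09, adjusted p = 0.0292, edgeR). It stayed between -0.64 and -0.56 on leaving out any one sample, with -0.64 without the sample that had *Xist*. *Wnt2*, a ligand gene known from lung and heart mesenchyme, lies on chromosome 6 from 17988940 to 18030585. It was lower in abundance, with 12.5 and 10.8 CPM in the GCE/+ embryos, against 7.06 and 6.93 CPM in the GCE/GCE embryos. Its samples did not overlap either. For *Wnt2* the difference on the log2 scale was -0.73 (SE 0.14, adjusted p = 0.0649, edgeR). Without GCE/+ replicate 1, the sample with the highest *Wnt2* level, it was -0.63 and no longer passed (adjusted p = 0.188), and without the filter on low counts the adjusted p was 0.105. Over all alternatives it ranged from 0.00310 to 0.188.

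The 250 bases before the annotated start of *Wnt11* (RefSeq, GRCm38.p6, chr7:98834862-98835111, plus strand) are given because *Wnt11* was the most abundant ligand gene that changed. Capitals mark the only match to the TCF/LEF motif CTTTGA, read here on the opposite strand as TCAAAG.
Wnt11 promoter: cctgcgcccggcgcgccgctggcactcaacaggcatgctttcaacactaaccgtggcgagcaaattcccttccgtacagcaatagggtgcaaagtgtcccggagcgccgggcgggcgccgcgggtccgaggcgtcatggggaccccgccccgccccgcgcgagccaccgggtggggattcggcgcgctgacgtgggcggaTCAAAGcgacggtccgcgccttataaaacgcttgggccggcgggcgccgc
The window is GC-rich (70.8%) and holds the letters TATAAA once, near its end. In windows of this length, 13.8% of 32851 mouse promoters held CTTTGA on either strand, and 5 of 34 promoters of members did, those of *Dkk1*, *Fzd1*, *Ror1*, *Wnt11* and *Wnt5b*. These 34 promoters belonged to 31 of the 47 members. The letters CAGTAGC, bound by the odd-skipped family to which Osr1 belongs, were in 3.0% of all promoters and in 0 of the 34. Such matches describe letters in a window and do not show binding. *Wnt11* has a second annotated start, whose window held neither motif. The windows of *Wnt2* and *Fzd9* reach into the annotated genes and are not printed. They held neither motif, and for *Dkk3* no window was available.

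None of the other ligands passed the test. *Wnt5a* was at 164 and 172 CPM in the GCE/+ embryos, against 149 and 148 CPM in the GCE/GCE embryos, samples that did not overlap, but its log2 fold change of -0.18 (SE 0.08) had an adjusted p of 0.483 (edgeR). *Wnt9a*, a ligand gene of forming joints, had 31.4 and 29.5 CPM against 30.4 and 32.0 CPM, and these samples overlapped. *Wnt7b* was rare, with 19 and 24 counts in the GCE/+ embryos, against 12 and 10 counts in the GCE/GCE embryos (log2 fold change -1.04, SE 0.43, adjusted p = 0.432, edgeR). Exons of *Wnt7b* overlap those of *AU022754* on the opposite strand, and the counts do not tell strands apart. Such an overlap was found for 7 members, *Wnt7b*, *Wnt11*, *Axin2*, *Sfrp2*, *Rspo3*, *Fzd5* and *Fzd6*. Only for *Wnt7b* was the other gene among the symbols counted. The part of such overlaps in the counts was not tested. The 7 other tested ligands, *Wnt2b*, *Wnt3*, *Wnt4*, *Wnt5b*, *Wnt6*, *Wnt10b* and *Wnt16*, had log2 fold changes between -0.68 and 0.32, and none had an unadjusted p under 0.05.

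Of the 19 ligands, 7 could not be tested, and *Dkk4* could not be either. *Wnt1*, *Wnt3a*, *Wnt7a*, *Wnt8a*, *Wnt8b*, *Wnt9b* and *Wnt10a* had at most 10 counts in any sample, and *Wnt8a* had 0 in all of them. *Wnt7a*, known from dorsal limb ectoderm, had between 6 and 10 counts. Several of these genes lie beside a ligand gene that was read. *Wnt9a* lies 16.2 kb from *Wnt3a* on chromosome 11, and *Wnt6* lies 6.2 kb from *Wnt10a* on chromosome 1. *Wnt9a* had between 29.5 and 32.0 CPM in the 4 samples, whereas *Wnt3a* had between 1 and 3 counts.

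Frizzled transcripts were carried mainly by *Fzd2*, *Fzd7* and *Fzd1*. In GCE/+ cells *Fzd2* made up 37.7% and 34.3% of the summed Frizzled level per kb, *Fzd7* 21.1% and 25.2% and *Fzd1* 16.4% and 16.2%. The sum was 145 and 153 CPM per kb in the GCE/+ embryos, against 154 and 164 CPM per kb in the GCE/GCE embryos. Of the 10 receptors, 8 had a positive log2 fold change and *Fzd10* and *Fzd2* a negative one, where 7969 of all 15645 tested genes were positive. In the test 1 receptor passed, beside 1.82% of all genes.

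*Fzd9*, whose product is known for a role in bone-forming cells, changed most in size among the 4 members that passed. It lies on chromosome 5 from 135248938 to 135251230. Its level was 4.89 and 7.09 CPM in the GCE/+ embryos, against 13.1 and 12.1 CPM in the GCE/GCE embryos. The GCE/+ replicates differed from each other by 0.53 on the log2 scale, less than the difference between genotypes of 1.07 (SE 0.19, adjusted p = 0.0441, edgeR). Without one or the other GCE/+ sample the value was 0.82 or 1.36, and it passed in both cases. Even so *Fzd9* remained a minor receptor, with 1.47% and 2.02% of the summed Frizzled level per kb in the GCE/+ embryos, against 3.71% and 3.23% in the GCE/GCE embryos.

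*Fzd1* was at 99.9 and 104 CPM in the GCE/+ embryos, against 121 and 121 CPM in the GCE/GCE embryos. Replicates agreed closely and the genotypes did not overlap, yet the log2 fold change of 0.25 (SE 0.08) did not pass (adjusted p = 0.245, edgeR). The abundant receptors *Fzd2* (200 and 192 CPM against 180 and 207 CPM) and *Fzd7* (139 and 174 CPM against 155 and 171 CPM) had overlapping samples. The 95% interval of the log2 fold change ran from -0.23 to 0.19 for *Fzd2* and from -0.20 to 0.33 for *Fzd7*.

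Co-receptors of both branches were read in every sample, and none passed the test, had an unadjusted p under 0.05 or was called by DESeq2. *Lrp6* was at 206 and 245 CPM in the GCE/+ embryos, against 252 and 257 CPM in the GCE/GCE embryos, and *Lrp5* had 104 and 113 CPM against 127 and 118 CPM. Both were higher in both GCE/GCE samples, with a log2 fold change of 0.18 each (SE 0.10 and 0.09, adjusted p = 0.656 and 0.562, edgeR). *Ror2*, a receptor for Wnt5a, had 92.7 and 83.5 CPM against 83.0 and 76.1 CPM (log2 fold change -0.15, SE 0.09). *Ror1* was chosen after its values were seen, because they rested on single samples. Its levels were 43.4 and 68.9 CPM in the GCE/+ embryos, against 64.0 and 62.6 CPM in the GCE/GCE embryos. The log2 fold change of *Ror1* was 0.17 with all samples, -0.13 without GCE/+ replicate 1 and 0.54 without GCE/+ replicate 2, and in the last case it passed (adjusted p = 0.0286, edgeR), the lowest value over all alternatives.

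**Figure D3:**
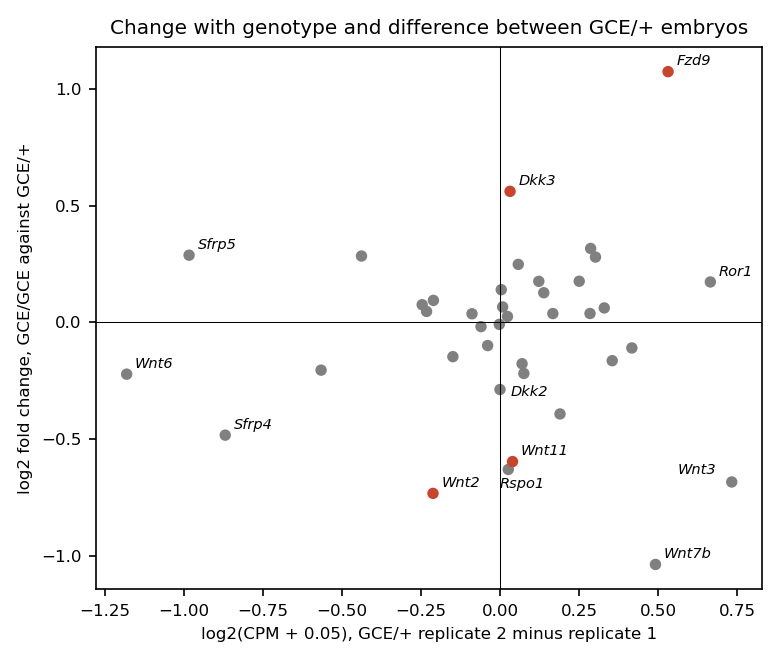
Log2 fold change with genotype (vertical axis) against the difference between both GCE/+ embryos (horizontal axis, log2 of CPM plus 0.05) for the 39 tested members, as a description, with the 4 that passed in red. *Wnt11* and *Dkk3* lie near 0 on the horizontal axis, while *Ror1* (0.66) differed more between the GCE/+ embryos than between genotypes (0.17).

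The secreted Sfrp inhibitors were dominated by *Sfrp2*, which held between 77.8% and 82.0% of their summed level per kb. *Sfrp2* was at 435 and 435 CPM in the GCE/+ embryos, against 448 and 417 CPM in the GCE/GCE embryos. Its log2 fold change was -0.01, with a 95% interval from -0.21 to 0.19, and the samples overlapped. *Sfrp1* varied between replicates, with 208 and 266 CPM against 229 and 194 CPM. *Sfrp4* and *Sfrp5* were low, between 2.47 and 5.11 CPM and between 0.822 and 2.22 CPM, and *Sfrp5* differed more between GCE/GCE replicates than between genotypes. None of the 4 Sfrp genes passed the test, had an unadjusted p under 0.05 or was called by DESeq2.

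Among the Dkk genes and *Wif1*, *Dkk3* rose. *Dkk3*, the divergent member of its family, lies on chromosome 7 from 112116017 to 112159057. It was at 32.1 and 32.8 CPM in the GCE/+ embryos, against 48.0 and 47.7 CPM in the GCE/GCE embryos. Replicates were close and the genotypes did not overlap (log2 fold change 0.56, SE 0.09, adjusted p = 0.0326, edgeR). The value stayed between 0.54 and 0.58 when each sample was left out. *Dkk3* thereby moved from 10.6% and 10.9% of the summed level per kb of this group to 18.2% and 16.2%, and *Dkk2* from 68.8% and 69.0% to 61.2% and 60.6%. *Dkk2* itself was at 228.9 and 228.8 CPM in the GCE/+ embryos, against 177.5 and 197 CPM in the GCE/GCE embryos. Both GCE/GCE samples were lower, and the log2 fold change of -0.29 (SE 0.09) did not pass (adjusted p = 0.216, edgeR). *Wif1*, which binds Wnts directly, had 37.3 and 37.9 CPM against 33.1 and 43.4 CPM, and *Dkk1* had between 3.48 and 5.21 CPM. In both the samples overlapped.

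The R-spondins, which amplify Wnt signals, were lower in sum, with 30.1 and 30.6 CPM per kb in the GCE/+ embryos, against 25.4 and 23.5 CPM per kb in the GCE/GCE embryos. *Rspo3* had the highest level of them per kb, and by CPM it was at 42.5 and 41.4 CPM in the GCE/+ embryos, against 39.8 and 38.5 CPM in the GCE/GCE embryos. *Rspo1*, known for its role in ovary formation, had 18.3 and 18.6 CPM against 13.5 and 10.3 CPM. The genotypes did not overlap and the GCE/GCE replicates differed by 0.39 on the log2 scale. The difference of *Rspo1* on the log2 scale was -0.63 (SE 0.15, adjusted p = 0.111, edgeR), so that it did not pass here. It passed with robust estimation in the same edgeR test (adjusted p = 0.0919), with DESeq2 (adjusted p = 0.0107) and with limma-voom (adjusted p = 0.0941), which called 1.95% of all genes and 5 members. Without GCE/GCE replicate 1 it also passed, at -0.84 (adjusted p = 0.00131), and without GCE/GCE replicate 2 it did not, at -0.45 (adjusted p = 0.366). *Rspo2*, needed for normal limb outgrowth, had 19.3 and 22.0 CPM against 15.2 and 16.2 CPM (log2 fold change -0.39, SE 0.12, adjusted p = 0.215, edgeR). *Rspo4* was low, between 1.13 and 1.39 CPM, and its samples overlapped.

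**Figure D4:**
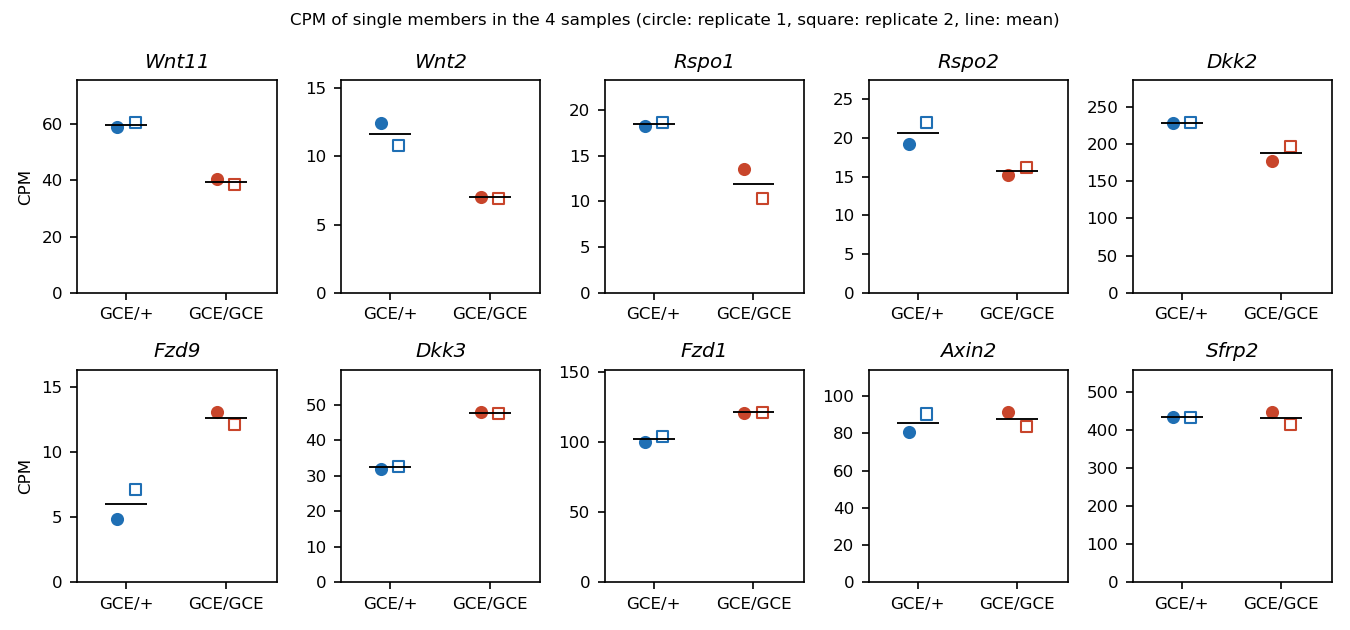
CPM in each embryo (points) for the members with an unadjusted p under 0.05 other than the rare *Wnt7b*, and for *Axin2* and *Sfrp2*, GCE/+ beside GCE/GCE, with lines for the group means. Both GCE/GCE points lie below both GCE/+ points for *Wnt11*, *Wnt2*, *Rspo1*, *Rspo2* and *Dkk2* and above them for *Fzd9*, *Dkk3* and *Fzd1*, while those of *Axin2* and *Sfrp2* overlap.

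*Axin2*, a feedback target of β-catenin signalling, was at 80.4 and 90.3 CPM in the GCE/+ embryos, against 91.3 and 83.8 CPM in the GCE/GCE embryos. The samples overlapped, and the log2 fold change was 0.04 (SE 0.09, 95% interval from -0.17 to 0.25, adjusted p = 0.966, edgeR). Its sign turned without GCE/+ replicate 1 (-0.050) and without GCE/GCE replicate 1 (-0.033). Of 12 other feedback and target genes of the pathway, 10 could be tested and 0 passed in edgeR, beside 1.82% of all genes. DESeq2 called 1 of them, as higher, where it called 3.45% of all genes in either direction. Their log2 fold changes were positive in 8 and negative in 2, with a median of 0.15. In edgeR 3 had an unadjusted p under 0.05, all higher, beside 5.62% of all genes.

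Beyond the members, 79 genes of the pathway were listed, and these include the 12 feedback and target genes above. Of the 79, 76 could be tested and 1 passed, where 1.82% of all tested genes did. *Nfatc1*, a calcium-regulated transcription factor gene, was at 120 and 132 CPM in the GCE/+ embryos, against 186 and 179 CPM in the GCE/GCE embryos (log2 fold change 0.54, SE 0.09, adjusted p = 0.0339, edgeR). Another 13 had an unadjusted p under 0.05, so that 14 of 76 did, beside 10.5% of all genes. Of these 14, 12 were higher and 2 lower, beside 5.62% and 4.86% of all genes. After *Nfatc1*, the lowest p-values were those of *Tnfrsf19* (0.40), *Daam2* (0.35), *Tcf7l2* (-0.30), *Celsr2* (0.34), *Frzb* (0.48), *Tspan12* (0.40) and *Lgr6* (0.62), each given as log2 fold change. *Frzb* encodes a secreted Wnt antagonist of the Sfrp kind and *Lgr6* an R-spondin receptor. In none of these, which were picked by their low p-values, did the samples of both genotypes overlap. Of all 76 tested, 30 had samples that did not overlap, beside 38.4% of all genes. Of these 30, 22 were higher and 8 lower, beside 19.2% and 19.1% of all genes. Across all tested genes, log2 fold changes rose with transcript length (Spearman's rho 0.257). The part of transcript length in these directions was not tested. DESeq2 called 4 of the pathway genes and 5 members, *Rspo1* in addition, against 3.45% of the 14707 genes to which it gave an adjusted p.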

How the data were processed

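Per the labels and the study's methods, the authors aligned the reads with TopHat2 (mm9) and used HTSeq to count fragments per gene. Raw counts of each embryo were deposited, not normalized. The strand was not kept by the library kit. Here genes were filtered with filterByExpr, normalized by TMM and tested with edgeR 4.0.16 (R 4.3.3) by its quasi-likelihood test, GCE/GCE against GCE/+, two-sided, over all 15645 genes, with the adjusted p threshold of 0.1. SE values come from the F statistic. Residual and prior degrees of freedom were 2 and 6.381. The procedure was tested on simulated data. CPM use TMM-scaled library sizes. Transcript lengths (97.9% of symbols) and coordinates come from a GRCm38 annotation, and none were converted from mm9. DESeq2 1.42.0, limma 3.58.1, other normalizations and filters, a replicate block and leaving out each sample were alternatives. A legacy form of the fit was added after seeing the data. The members and lists were chosen with earlier results of these data known. The rule gave full values for members past an adjusted p of 0.1 or an unadjusted p of 0.05, the 3 highest per kb in each role, and *Axin2*, and ranges or counts for the others. *Ror1* falls outside it and was chosen after its values were seen. For the other pathway genes, the 8 lowest p-values were named. The floor of 3 counts covers counting error only.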

Additional observations from a re-analysis of the deposited data

How the results depend on the processing

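Between 3 and 5 members passed under every alternative, and *Wnt11*, *Dkk3* and *Fzd9* passed in all 15 other fits, while *Wnt2* passed in 13. The count of all genes (285) was 508 with DESeq2, 127 without the filter on low counts, 449 with a transcript length offset and replicate block, 130 at an adjusted p under 0.05, and between 191 and 950 when 1 sample was left out, with 950 without GCE/+ replicate 2 and 740 without GCE/GCE replicate 1. The count of other pathway genes (1) was 4 with DESeq2, 3 with the length offset and block, and between 1 and 8 when 1 sample was left out, with 8 without GCE/+ replicate 2 and 2 without GCE/GCE replicate 1 or replicate 2. The count over all marker lists (16) was 25 with DESeq2, 9 without the filter, 26 with the length offset and block, 9 at an adjusted p under 0.05, and between 16 and 34 when 1 sample was left out, with 34 without GCE/+ replicate 2, 33 without GCE/GCE replicate 1 and 25 without GCE/GCE replicate 2. The cause was not tested. When a single sample was left out, *Axin2* ranged from -0.050 to 0.12, reversing to -0.050 and -0.033 without GCE/+ or GCE/GCE replicate 1, and *Ror1* ranged from -0.13 to 0.54. The labels link same-numbered embryos by a number alone. Deviations of same-numbered samples had a correlation of 0.002 over 9764 genes, and a shared litter or batch was not tested. With the number as a replicate block 4 members and 290 genes passed, and the marker lists gave 24. Log2 fold changes rose with transcript length across genes (Spearman's rho 0.257), and with a length offset 4 members passed. With 2 samples a group, calls rest on a spread shared across genes, and the depth left 8 members, with at most 10 counts, untested.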
